A study of Homo sapiens with 6 samples.

Results

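The sites described here are 8246 SMAD2 binding sites of Hs578T cells that were found in 3 of 4 chromatin immunoprecipitation and sequencing (ChIP-seq) libraries, and that had no summit in the remaining one, the second library of activin A alone. The immunoprecipitation used an antibody to SMAD2. A summit is the single base of highest signal within a peak, and neighbouring summits of the 4 lists, at most 250 bp apart on chromosomes 1 to 22 and X, were merged into 1 site. The sites were selected on these calls alone: a summit in activin replicate 1, a summit in both palbociclib libraries and none in activin replicate 2. They make up 8246 of the 36647 sites in all, and are called the missing sites below. The 5829 sites with a summit in all 4 libraries are called the common sites.

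Hs578T cells are a line from a triple-negative human breast cancer. Activin A (50 ng/ml, 1.5 h) was given in both groups. The activin group (2 libraries) received nothing else that the labels name, and the palbociclib group (2 libraries) also received palbociclib, an inhibitor of the kinases CDK4 and CDK6, at 1 µM for 24 h. Peaks were called over 1 input per treatment, and no ChIP library without activin A was analysed here. The labels number the replicates but do not say whether they came from separate cultures. The activin lists held 25553 summits (replicate 1) and 7241 (replicate 2), and the palbociclib lists 27290 (replicate 1) and 19225 (replicate 2), after 1 summit outside these chromosomes was left out. Activin replicate 2 thus stood apart by its short list, and every missing site is defined by it. The number of reads behind each list is unknown, so absence means only that no summit was called.

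SMAD2 carries the activin and TGF-β signal from the membrane to DNA. The activated type I receptor phosphorylates it, and it then joins SMAD4 and gathers in the nucleus, where it occupies DNA largely together with partner factors. Cyclin-dependent kinases can phosphorylate the linker region of receptor-regulated SMADs, which gives the background for combining activin with a CDK4 and CDK6 inhibitor. The strength of a called peak is given by its score, here on a −log10 scale, which rises with both enrichment and the depth of sequencing. Scores were therefore turned into percentiles over the 14075 sites found in activin replicate 1 and both palbociclib libraries, where 0 is the strongest site and 100 the weakest. They were also divided into 10 bins of 10 points each, bin 1 holding the strongest sites and bin 10 the weakest.

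The missing sites scored lower than the common sites in each of the libraries that held them. In activin replicate 1 their scores ran from 1.32 to 194.5 with a median of 18.6, against a median of 74.7 at the common sites. In palbociclib replicate 1 they ran from 1.38 to 324.1 with a median of 27.2, against 119.5. In palbociclib replicate 2 they ran from 1.41 to 156.0 with a median of 11.5, against 56.0. Both kinds of site overlapped in score in each library, but the quartiles did not. The upper quartile of the missing sites in activin replicate 1 was 31.7, and the lower quartile of the common sites there was 54.2. As percentiles over the 14075 shared sites, the medians of the missing sites were 70.0 in activin replicate 1, and 70.0 and 70.2 in palbociclib replicates 1 and 2. The missing sites made up 58.6% of the sites ranked and were mostly the weaker ones. That share largely sets these medians, so their closeness says little. Ranked instead among all sites of a library, the median missing site stood at rank 11031 of 25414 in activin replicate 1, and 10522 of 27212 and 11074 of 19142 in palbociclib replicates 1 and 2. As percentiles over all sites of a library these medians were 43.6 in activin replicate 1, and 38.8 and 57.9 in palbociclib replicates 1 and 2, so the missing sites were weak only relative to the shared sites, and middling within a whole library.

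Among the 14075 shared sites, more missing sites ranked low in all 3 libraries than ranked high in all 3. In every one of the 3 libraries at once, 2384 missing sites stood at percentile 75 or weaker of the shared sites and 68 at percentile 25 or stronger. Taken singly, 160 missing sites stood at percentile 25 or stronger in activin replicate 1, and 221 and 196 in palbociclib replicates 1 and 2. By definition about 25% of all 14075 sites stand there in each library. The counts over all 14075 sites in all 3 libraries at once were not computed. The excess at the weak end restates the lower scores of the missing sites and is not a separate result. The missing sites had a simple form: 8097 of them carried 1 summit in each of the 3 libraries, and 149 carried more than 1 summit in at least one. Across the missing sites, Spearman's rho of the scores was 0.852 between activin replicate 1 and palbociclib replicate 1, 0.782 between activin replicate 1 and palbociclib replicate 2, and 0.854 between the palbociclib replicates. At the common sites the values were 0.832, 0.791 and 0.921 in the same order, so the missing sites had the higher value in the first pair and the lower in the other pairs. These correlations run across sites of the same libraries and describe them only.

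The share of sites missing from activin replicate 2 rose with falling score in each of the other libraries. Over all 14075 sites it was 58.6% (Wilson 95% interval 57.8 to 59.4). Ranked by activin replicate 1, 13 of 1407 sites in bin 1 were missing, or 0.924%. In bin 3, with scores from 60.6 to 77.7, 200 of 1424 sites were missing, or 14.04%. In bin 5, with scores from 35.8 to 47.0, 915 of 1439 were missing, or 63.6%. In bin 10, with scores from 1.32 to 6.54, 1402 of 1407 were missing, or 99.6%. The shares ranked by the palbociclib libraries followed nearly the same course, from 1.64% and 1.21% in bin 1 to 98.9% and 99.3% in bin 10. In bin 5 they were 58.7% in palbociclib replicate 1 and 57.5% in palbociclib replicate 2, both below the 63.6% of activin replicate 1. At the common sites the score in activin replicate 2 itself fell along the same ranking, from a median of 21.1 in bin 1 of activin replicate 1 to 5.23 in bin 5. The selection used absence from activin replicate 2, so these shares describe the rule and were not tested.

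**Figure D1:**
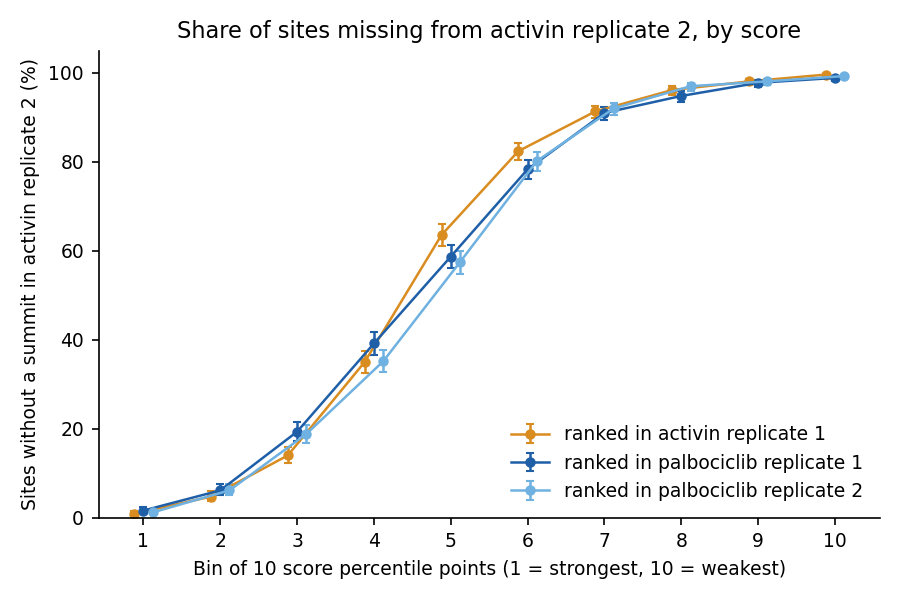
Share of the 14075 sites of the other 3 libraries with no summit in activin replicate 2 (percent, vertical axis), by bin of the score percentile (horizontal axis) in each of these libraries; bars are Wilson 95% intervals, which cover counting error only. The share passes 50% in bin 5 in all 3 rankings and is over 98% in bin 10.

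Absence from a single library was common only for activin replicate 2. Sites missing only in activin replicate 1 numbered 82, which is 1.39% of the sites in the other 3 libraries. Sites missing only in palbociclib replicate 1 numbered 164 (2.74%), and sites missing only in palbociclib replicate 2 numbered 102 (1.72%). The difference in number was smaller between lists of equal length. When every list was reduced to its 7241 best-scored summits, 868 sites were missing only in activin replicate 2, or 15.1% of the 5767 sites in the other 3 reduced lists. The other 3 libraries then gave 178 (3.51%), 205 (4.02%) and 230 (4.48%) in the order activin replicate 1, palbociclib replicate 1 and palbociclib replicate 2. At equal list length activin replicate 2 still lacked the most sites that the others shared, though the reduced list kept its weak summits and the others did not.

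The kinds of absence also differed in what lay close by. Of the sites missing only in activin replicate 1, 72 of 82 (87.8%, Wilson 95% interval 79.0 to 93.2) had a summit of that same library within 1000 bp. The shares were 127 of 164 (77.4%) for palbociclib replicate 1 and 92 of 102 (90.2%) for palbociclib replicate 2. Of the 8246 missing sites, 735 had an activin replicate 2 summit within 1000 bp, or 8.91% (8.32 to 9.55). The activin replicate 2 list searched there held 7241 summits. The lists searched for the small sets held 25553, 27290 and 19225 in the order above. A shorter list offers fewer summits nearby, and these shares were not computed at equal list length. Median distances to the nearest summit of the missing library were 454 bp, 506.5 bp and 460.5 bp for the 3 small sets, and 45226.5 bp for the missing sites. Within activin replicate 1, the sites missing only in palbociclib replicate 2 had a median percentile of 18.6 over all sites of that library, and the missing sites one of 43.6. In activin replicate 2 itself the small sets lay in the weaker part of the list, with median percentiles of 60.9 (missing only in activin replicate 1), 64.3 and 64.3 (missing only in palbociclib replicates 1 and 2).

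The strongest missing sites were like the small sets in this respect. Of the 11 missing sites with a mean percentile of at most 10 over the 3 libraries, 10 had an activin replicate 2 summit within 1000 bp and 0 had a common site within 2000 bp. Of the 73 with a mean percentile of at most 20, 33 had such a summit and 2 such a common site. The share with an activin replicate 2 summit that close lay between 7.57% and 9.74% in each bin from 4 to 10. Over all missing sites, the activin replicate 2 summit within 1000 bp belonged to a common site in 537 of the 735 cases, to a site with 1 or 2 other libraries in 48 and to a site of activin replicate 2 alone in 150.

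The leading missing site lay at chr10:121356858-121356862 (hg19, as are all positions here). Its scores were 168.1 in activin replicate 1, and 324.1 and 148.5 in palbociclib replicates 1 and 2, and its percentiles 1.71, 1.101 and 1.63. All 3 libraries placed it among their strongest sites, at rank 245, 159 and 235. Activin replicate 2 had a summit with a score of 24.3 at position 121356407, which is 451 bp away and was in no site of another library. The nearest common site was 54.1 kb away.

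The next pair of sites lay on chromosome 16. The site at chr16:89631929-89631983 had scores of 155.7 in activin replicate 1, and 249.1 and 156.0 in palbociclib replicates 1 and 2, and an activin replicate 2 summit with a score of 47.1 lay 538 bp away. The site at chr16:30710140-30710158 had scores of 194.5, 224.3 and 139.8 in the same order, and an activin replicate 2 summit with a score of 21.1 lay 544 bp away. Its score in activin replicate 1 is the highest of any missing site there. The site at chr3:47555287-47555330 had percentiles of 4.07 in activin replicate 1, and 5.06 and 8.19 in palbociclib replicates 1 and 2, with an activin replicate 2 summit 479 bp away.

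Of the other 6 sites among the best 10, 5 followed the same form. They lay at chr15:75199285-75199291, chr22:29664335-29664351, chr9:37486099-37486135, chr3:53381494-53381524 and chr3:57583033-57583044. Their mean percentiles over the 3 libraries ran from 7.80 to 9.36, and an activin replicate 2 summit lay 318 to 514 bp away from each. The nearest activin replicate 2 score ran from 5.75 to 20.7. In each of these 5, as in the 4 sites before them, that summit stood in a site of activin replicate 2 alone.

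The exception among the best 10 was the site at chr16:75498508-75498546. It had scores of 96.6 in activin replicate 1, and 218.5 and 103.7 in palbociclib replicates 1 and 2. The nearest activin replicate 2 summit was 31.2 kb away. Its percentile was 12.1 in activin replicate 1 and 4.93 ± 0.515 in the palbociclib group (SD, n = 2), so it ranked higher in both palbociclib libraries than in activin replicate 1. Only 1 activin library held the site, so this difference could not be set against the spread between activin replicates.

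Strong sites with no activin replicate 2 summit near them were few. Of the 8246 missing sites, 5959 had no such summit within 10 kb, and 34 of these had a mean percentile of at most 20. After the chromosome 16 site just described came chr11:47663958-47663968, with percentiles of 24.4 in activin replicate 1, and 6.95 and 7.00 in palbociclib replicates 1 and 2. The nearest activin replicate 2 summit to it was 63.3 kb away. The site at chr8:57124407-57124448 had percentiles of 12.7, 10.7 and 16.1 in the same order, and the one at chr12:110434115-110434120 had 11.3, 15.3 and 13.2. At chr4:8160855-8160863 they were 17.7, 8.92 and 14.1. The chromosome 16, 11 and 4 sites were stronger in both palbociclib libraries than in activin replicate 1, with differences in percentile between -17.5 and -3.63 points, and the chromosome 8 and 12 sites differed by at most 3.99 points in either direction.

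**Figure D2:**
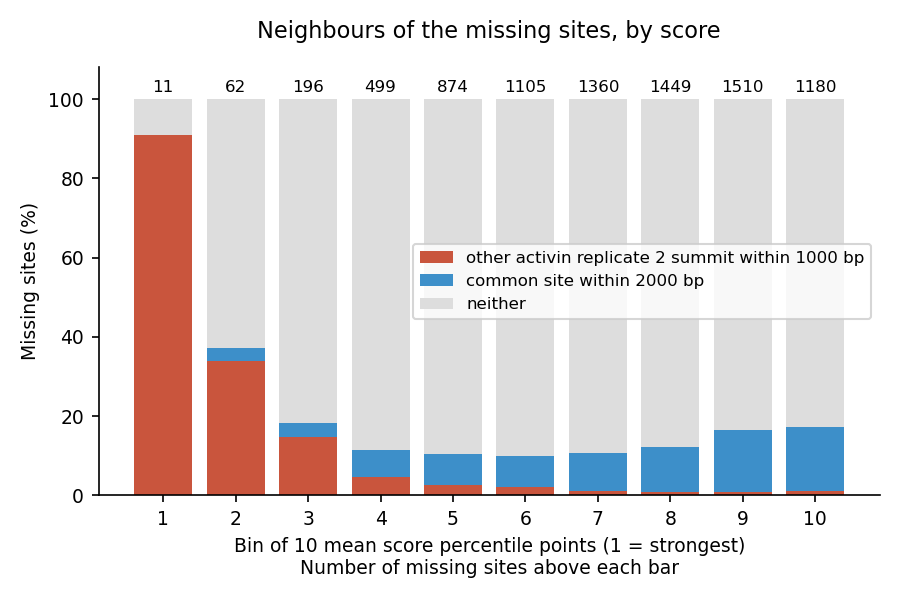
Share of the missing sites (percent, vertical axis) with a common site within 2000 bp, with another activin replicate 2 summit within 1000 bp, or with neither, by bin of the mean percentile over the 3 libraries (horizontal axis); the number of missing sites stands above each bar. Another activin replicate 2 summit lay beside 90.9% of the 11 sites in bin 1 and 1.102% of the 1180 in bin 10, and a common site lay within 2000 bp of 16.0% in bin 10.

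By their surroundings the missing sites fell into 3 sets of unequal size, a division made after the values were seen. The first set, 917 sites or 11.1% (Wilson 95% interval 10.5 to 11.8), lay within 2000 bp of a common site. The second, 180 sites or 2.18%, had another activin replicate 2 summit within 1000 bp. The last, 7149 sites or 86.7%, had neither. The second set was the strongest, with a median percentile of 44.4 in activin replicate 1 and a median distance of 440 bp to the activin replicate 2 summit. The medians were 79.2 in the first set and 69.4 in the last.

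The first set consisted mostly of sites weaker than the common site next to them. In activin replicate 1 the median score was 12.5 at these missing sites and 68.6 at the common sites next to them. In palbociclib replicate 1 the medians were 19.7 and 102.6, and in palbociclib replicate 2 they were 9.10 and 49.7. The missing site scored below its common neighbour in 878 of 917 cases in activin replicate 1, and in 872 and 873 in palbociclib replicates 1 and 2. The median ratio of the scores was 0.209, 0.207 and 0.202 in the same order. These are ratios of −log10 scores within a library and do not measure relative binding. The distances gathered at short range: the fullest 100 bp step was 500 to 600 bp, with 130 sites. Of the common sites concerned, 751 had 1 missing site within 2000 bp, 74 had 2 and 6 had more.

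Close to common sites the missing sites were denser than the common sites themselves. Within 1000 bp of a common site lay 6.82% of the missing sites (6.29 to 7.38), and 1.82% of the common sites had another one that close (1.51 to 2.20). Within 2000 bp the shares were 11.1% and 3.64%, and within 10 kb 24.2% and 17.1%. At 100 kb they were 63.2% and 63.3%. The median distances were 52825.5 bp for the missing sites and 58543 bp for the common sites. Other sites absent from activin replicate 2 showed the same nearness. Of the 4649 sites of the replicate 1 libraries alone, 11.7% lay within 2000 bp of a common site, and of the 4918 sites of activin replicate 1 alone 22.6% did. The excess at short range is thus not particular to the missing sites.

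**Figure D3:**
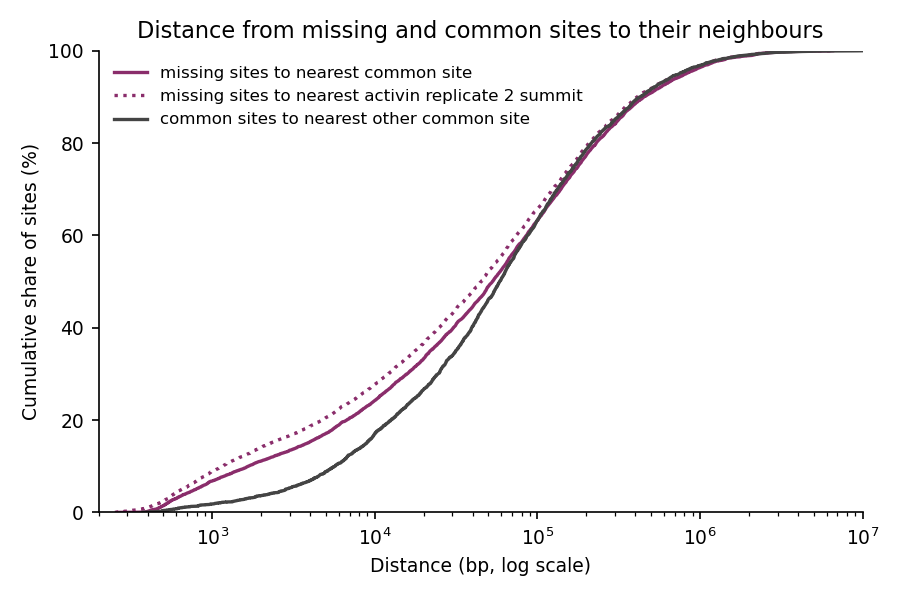
Cumulative share of sites (percent, vertical axis) against distance in bp (horizontal axis, log scale) from the 8246 missing sites to the nearest common site (solid purple) and to the nearest activin replicate 2 summit (dotted purple), and from the 5829 common sites to the nearest other common site (grey). The curves part below 10 kb, where 24.2% of missing and 17.1% of common sites had a common site, and meet near 100 kb.

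The distance from missing to common sites had no single course along the bins of the mean percentile. Its median was 37668 bp in bin 1, 53795 bp in bin 2 and 69137 bp in bin 3, lay between 67743.5 and 76924 bp in bins 4 to 7, and was 60000 bp in bin 8, 35034.5 bp in bin 9 and 14103.5 bp in bin 10. The share within 2000 bp of a common site was 0 of 11 sites in bin 1, 7.78% in bin 6 and 16.0% in bin 10. The spread of the 3 best summits within a missing site was wider at weak sites, with a median of 38.0 bp in bin 6 and 137 bp in bin 10. Over all missing sites its median was 50.0 bp, against 35.0 bp at the common sites. Within each of bins 2 to 9 the order was the opposite, as in bin 6 with 38.0 bp at missing and 61.0 bp at common sites. Sites whose summits lie far apart can take in a further summit more easily when summits are joined, so the rule itself bears on this comparison.

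Palbociclib was then compared with activin at the missing sites by rank contrasts, the percentile in a palbociclib library minus that in activin replicate 1. A negative contrast means a stronger site with palbociclib. Both contrasts share activin replicate 1, and the group with activin alone is left with 1 library, so no test of treatment was possible. The contrast between the palbociclib replicates gives the only spread between replicates. The median contrast was -0.386 points for palbociclib replicate 1 (middle 50% of sites from -7.52 to 6.50) and -0.153 points for palbociclib replicate 2 (-8.95 to 8.09). Between the palbociclib replicates (replicate 2 minus replicate 1) the median was 0.417 points (-6.12 to 7.07). The median absolute contrast was 7.04 points and 8.52 points against activin replicate 1, and 6.67 points between the palbociclib replicates. Both values against activin replicate 1 were thus above the value between the palbociclib replicates. At the common sites these 3 values were 5.65, 6.35 and 3.65 points. The common sites were mostly stronger, and contrasts were small at the strong end. In bin 1 of the mean percentile, the values at 1249 common sites were 2.10, 2.28 and 1.03 points. In bin 4 the values were 8.50, 9.22 and 5.39 points at the missing sites. At the common sites of bin 4 they were 7.52, 9.35 and 6.21 points, so the order of missing and common sites differed by pair.

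The size and the sign of the median contrast depended on how sites were ranked, for both palbociclib libraries. With percentiles over all sites of each library the median was -5.23 points for palbociclib replicate 1 and 11.03 points for palbociclib replicate 2, whose list is shorter than that of activin replicate 1. With percentiles over the missing sites alone both medians were above 0, at 0.0758 and 0.136 points. No direction over the missing sites as a whole is therefore given.

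Large contrasts were counted past 20 percentile points. In palbociclib replicate 1, 367 missing sites (4.45%) ranked at least 20 points higher than in activin replicate 1, against 3.45% of all 14075 sites, and 257 (3.12%) ranked at least 20 points lower, against 3.01%. In palbociclib replicate 2, 543 (6.59%) ranked higher, against 5.41% of all sites, and 514 (6.23%) ranked lower, against 5.34%. Between the palbociclib replicates, 238 missing sites (2.89%) ranked at least 20 points higher in replicate 2, against 2.42%, and 232 (2.81%) ranked lower, against 1.84%. The share among the missing sites was above the background share in all 6 counts, in some by little (3.12% against 3.01%). Relative to the background share, it was most above it in a count between replicates of the same treatment. These counts were not matched for strength, and the missing sites were mostly the weaker ones. The excess is therefore not read as a result about the missing sites. The 14075 sites include the missing sites themselves. At the common sites alone the shares ranked higher and lower were 2.04% and 2.87% for palbociclib replicate 1 against activin replicate 1. They were 3.74% and 4.07% for palbociclib replicate 2, and 1.77% and 0.463% between the palbociclib replicates.

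**Figure D4:**
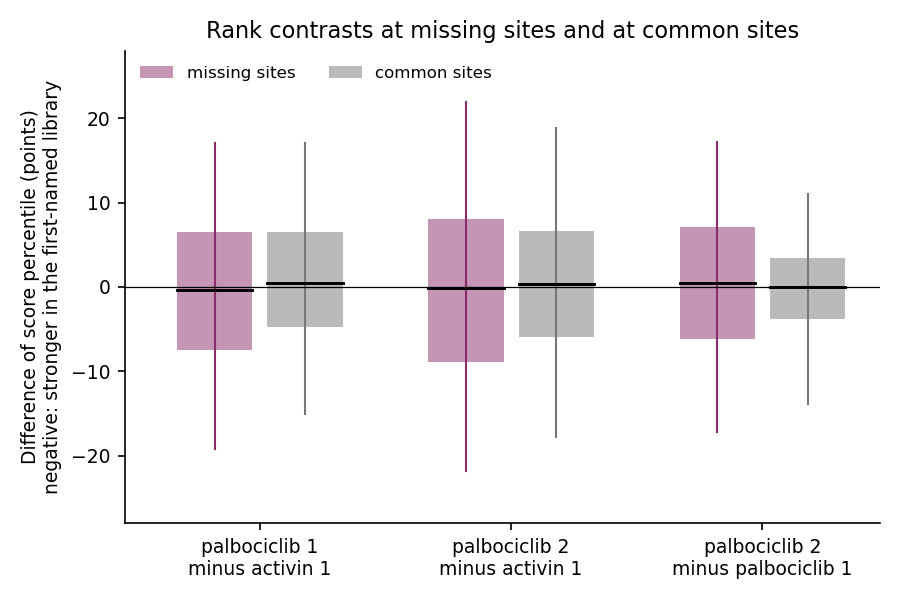
Difference of the score percentile between 2 libraries (points, vertical axis; negative means stronger in the first-named library) at the 8246 missing sites (purple) and the 5829 common sites (grey); black lines are medians, boxes the middle 50% of sites and thin lines the middle 90%. All 6 medians lie within 1 point of 0, and the boxes of the missing sites between the palbociclib replicates run from -6.12 to 7.07.

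Set apart by strength, the missing sites of bins 2 to 4 had median contrasts below 0 for both palbociclib libraries that were larger in size than the median contrast between the palbociclib replicates. In bin 4 of the mean percentile, with 499 missing and 922 common sites, the median contrast of the missing sites was -4.13 points for palbociclib replicate 1 and -2.80 points for palbociclib replicate 2. At the common sites of the same bin it was 2.47 and 2.34 points, on the other side of 0. Between the palbociclib replicates the medians there were 1.57 points and -0.124 points. In bin 3 the missing sites gave -3.72 and -3.52 points and the common sites 0.867 and 0.714 points, and in bin 2 the 62 missing sites gave -3.45 and -3.85 points. In bin 5 they gave -2.18 and -0.927 points, the latter smaller in size than the 1.28 points between the palbociclib replicates there. In bin 1, with 11 missing sites, both medians were above 0, at 0.863 and 1.09 points. From bin 6 on the medians of the missing sites lay between -0.647 and 1.27 points. These are medians of signed values, and single sites spread more widely. At the missing sites of bins 2, 3 and 4 the median absolute contrast between the palbociclib replicates was 3.28, 4.54 and 5.39 points. Against activin replicate 1 it was 7.50, 7.91 and 8.50 points for palbociclib replicate 1, and 7.34, 8.90 and 9.22 points for palbociclib replicate 2. Absence from activin replicate 2 chose these sites, so a lower rank in the other activin library is a measure close to the rule and supports nothing by itself. The bins were computed only with the ranking over the 14075 shared sites, and the median over all missing sites changed with the ranking.

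The same sites were compared with common sites of the same bin in 1 library at a time. In bin 5 of palbociclib replicate 1, the median percentile in activin replicate 1 was 48.7 at 824 missing sites and 38.1 at 579 common sites, a gap of 10.6 points. In palbociclib replicate 2 it was 47.8 and 42.5, a gap of 5.26 points. In bin 5 of palbociclib replicate 2 the gap was 10.6 points in activin replicate 1 and 2.01 points in palbociclib replicate 1. When activin replicate 1 set bin 5, the gaps were 4.65 and 9.06 points in palbociclib replicates 1 and 2. The missing sites were thus weaker than common sites of the same bin in each of these 6 readings, and in bin 5 of either palbociclib library the gap in activin replicate 1 was wider than the gap in the other palbociclib library. This order held in all 10 bins of palbociclib replicate 2. Ranked by palbociclib replicate 1 it was reversed in bin 6 (9.30 points in activin replicate 1 and 9.47 in palbociclib replicate 2), bin 8 (9.78 and 12.8 points) and bin 9 (10.2 and 12.1 points). The bins are wide, and the place of a site within its bin was not matched. Missing and common sites are told apart by activin replicate 2. A wider gap in the other activin library is therefore close to the rule and supports nothing by itself.

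The missing sites with the largest mean contrast were chosen by that contrast, so their values are a description. The largest shift to a stronger rank with palbociclib was at chr9:34651982-34651998, with scores of 11.8 in activin replicate 1, and 83.6 and 36.7 in palbociclib replicates 1 and 2. Its percentile was 80.5 in activin replicate 1 and 35.3 ± 0.9496 in the palbociclib group (SD, n = 2). Next came chr8:67832955-67832976, from 72.7 to 30.2 ± 8.55, and chr16:58718587-58718615, from 76.0 to 36.6 ± 0.613. The site at chr19:21512115-21512141 went from 63.3 to 24.0 ± 5.12. At these 4 sites both palbociclib libraries ranked higher than activin replicate 1, with the smallest difference at -35.7 points, and they lay closer to each other than to it. The fifth, at chr7:150102122-150102184, had percentiles of 98 in activin replicate 1, and 78.4 and 44.0 in palbociclib replicates 1 and 2, so the palbociclib replicates differed there by more than palbociclib replicate 1 differed from activin.

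The largest shift to a weaker rank was at chrX:15873369-15873413, with scores of 45.1 in activin replicate 1, and 18.7 and 6.83 in palbociclib replicates 1 and 2. Its percentile was 41.6 in activin replicate 1 and 82.0 ± 2.93 in the palbociclib group (SD, n = 2). The site at chr8:105601552-105601567 went from 43.1 to 78.9 ± 1.12, and the site at chr11:44331553-44331600 from 41.05 to 77.9 ± 14.2. Both remaining sites lay on chromosome 1, at chr1:28052052-28052155, from 46.9 to 82.3 ± 7.56, and at chr1:25942817-25942834, from 43.1 to 78.4 ± 7.15. In activin replicate 1 all 5 scored above the upper quartile of the missing sites, with scores from 39.0 to 45.4. None of the 10 sites named for their contrast had an activin replicate 2 summit within 4 kb, the nearest being 4.75 kb away at the first chromosome 8 site.

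**Figure D5:**
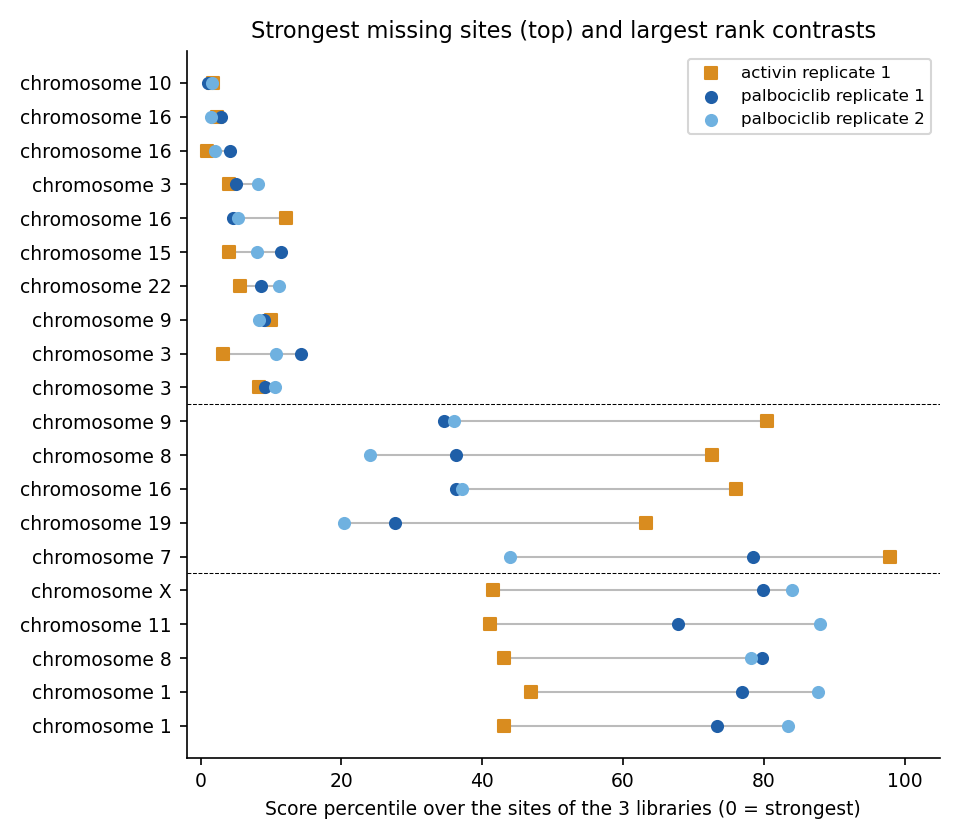
Score percentile (horizontal axis, 0 is strongest) in activin replicate 1 (squares) and both palbociclib libraries (circles) at the 10 strongest missing sites (top), the 5 with the largest shift to a stronger rank with palbociclib (middle) and the 5 with the largest shift to a weaker rank (bottom), labelled by chromosome. The strongest sites lie within 15 points of 0 in every library. The squares lie to the right of both circles in the middle set and to the left of both in the bottom set. The selection used the mean of both palbociclib libraries, so it fixes the side of that mean only.

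At the edge of the rule, missing and common sites overlapped in strength. The missing site nearest to an activin replicate 2 summit lay 252 bp from it, on the X chromosome at chrX:134477965-134478041, with percentiles of 42.5 in activin replicate 1, and 45.8 and 53.8 in palbociclib replicates 1 and 2. Sites at chr21:35747846-35747922 (253 bp) and chr6:32937464-32937496 (257 bp) followed, and 23 missing sites lay within 300 bp of such a summit. On the other side, the common site with the lowest activin replicate 2 score, 1.4 at chr19:47539131-47539308, had percentiles of 49.1, 74.99 and 83.5 in the same order. The next, with 1.44 each, lay at chr1:28868349-28868409 and chr4:77227651-77227851. The 16 common sites with an activin replicate 2 score under 2 had median percentiles of 55.8, 58.7 and 49.4.

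Missing sites occurred on all 23 chromosomes analysed. Their share among the sites of the 3 libraries ran from 53.0% on chromosome 1 (773 of 1458 sites, Wilson 95% interval 50.5 to 55.6) to 68.4% on chromosome 18 (121 of 177, 61.2 to 74.8). Chromosome 8 had 65.0%, chromosome 21 had 64.3% and the X chromosome 63.6%. Most of this spread went with the strength of the sites. With the genome-wide share in each bin of the mean percentile applied to its own sites, chromosome 1 would have had 52.5% and chromosome 18 65.1%. The observed share lay within 3.31 points of this value on every chromosome. The differences were widest on chromosome 18 (3.31 points), chromosome 22 (3.31 points) and chromosome 11 (2.80 points) on the high side, and on chromosome 5 (-1.94 points) and chromosome 7 (-1.94 points) on the low side. The median contrast per chromosome ran from -1.87 points (chromosome 22) to 1.05 points (chromosome 10) for palbociclib replicate 1 and from -3.10 points (chromosome 13) to 1.72 points (chromosome 10) for palbociclib replicate 2.

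Along the chromosomes, missing sites formed 3311 runs with no common site between them, of which 1354 held a single site and 42 held 10 or more. The longest run, 20 sites, covered 1380 kb of chromosome 10 from 133795271 to 135175287, with no activin replicate 2 summit inside it. The best mean percentile in it was 37.0, so none of its sites was strong. A run of 18 sites on the same chromosome stretched over 5661.5 kb from 44070028 to 49731547, also without an activin replicate 2 summit. A run of equal number on chromosome 8 was far denser, with 18 sites in 85.0 kb from 145669688 to 145754647. There 9 activin replicate 2 summits lay between the missing sites. A run of 17 sites covered chromosome 17 from 43325335 to 44848473, with none. These runs were picked for their length after the values were seen. Missing sites made up 58.6% of the 14075 shared sites, so some runs of them would occur at that share even without clustering. The number and length that it would give were not computed, and clustering was not tested. Of the missing sites, 2328 (28.2%) had another missing site within 2000 bp, a share for which no reference was computed. The position of any of these sites relative to genes, and their sequence, were not analysed here.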

How the data were processed

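SMAD2 ChIP-seq was described from 4 deposited summit lists, 2 per treatment; the 2 input libraries were not analysed as data. The submitters' processing notes name hg19, MACS2 2.0.9, Bowtie 1.1.0 and Picard. Their settings were not given in the sources used here. Per the labels, peaks were called over the input of the same treatment, so input and treatment cannot be told apart; replicates have separate lists. The deposited score is on a −log10 scale, read from its lowest values of 1.31 to 1.4; whether it rests on a p-value or a q-value is not stated. It was used to rank sites within a list, and score medians and ratios compare sites of the same library. Scores were not scaled between libraries. The authors' lists give no read counts, so depth is unknown.

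Summits on 23 chromosomes were joined at 250 bp. A site's score in a library was that of its best summit. Distances run from edge to edge. Percentiles gave ties their mean rank. Intervals cover counting error only. The sites and comparisons were chosen with earlier results of these data known. Named sites are the 10 with the best mean percentile, the 5 best without an activin replicate 2 summit within 10 kb, the 5 with the largest mean contrast each way, and the 3 nearest the rule on each side. No gene or sequence was assigned, because the reference tables used a build other than hg19. No test was made, since 1 activin library holds the sites. The joining and distance functions were tested on simulated data. Scripts used matplotlib 3.10.9, scipy 1.17.1, pandas 2.3.3 and numpy 2.4.6 under Python 3.11.15. Alternatives covered the joining distance, the score threshold, equal list lengths, stricter absence, the set ranked, the size of a large contrast and leaving out each library.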

Additional observations from a re-analysis of the deposited data

How the results depend on the processing

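The settings were compared with the reported values by whether they lay within 1.5 times of the count, within the Wilson interval of a share or within the binomial 95% interval of a median. Of 88 recomputed values, 34 stayed within these bounds and 54 moved, none of them against a test. The number of missing sites was 868 in equal-length lists and 9465 to 12783 with 1 library left out, the last without palbociclib replicate 2. The share missing was 57.7% with joining at 100 bp, 60.3% with scores of at least 5, 50.3% when no activin replicate 2 summit was allowed within 2000 bp, 15.1% in equal-length lists and 61.5% to 68.4% with a library left out. The median percentile in activin replicate 1 was 68.9 with the stricter absence, 83.5 in equal-length lists, 43.6 over all sites of the library and 65.6 to 68.8 with a library left out. The median distance to a common site was 71756.5 bp and 43962 bp with joining at 100 and 500 bp, 76078 bp with scores of at least 5, 69930.5 bp with the stricter absence, 82096.5 bp in equal-length lists and 43177 to 49604 bp with a library left out. The share with an activin replicate 2 summit within 2000 bp, 14.1% as reported, was 16.6% and 12.3% with joining at 100 and 500 bp, 9.75% with scores of at least 5, 16.5% in equal-length lists and 14.1% to 17.0% with a library left out; the stricter absence makes it 0 by its own rule.

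The median contrast of palbociclib replicate 1 was -0.824 points with scores of at least 5, -2.70 in equal-length lists, -5.23 over all sites of each library, 0.0758 over the missing sites and -0.222 to 0.103 with a library left out. That of palbociclib replicate 2 was -0.628, -2.43 and 11.03 points in the first 3 of these settings. The share past 20 points, 7.57% as reported for palbociclib replicate 1, was 8.73% and 6.43% with joining at 100 and 500 bp, 10.7% with scores of at least 5, 28.5% in equal-length lists, 12.2% over all sites of each library, 19.1% over the missing sites and 6.46% to 9.21% with a library left out; past 10 and 30 points it was 34.9% and 1.104%. For palbociclib replicate 2, 12.8% as reported, it was 12.1% with joining at 500 bp, 15.8%, 30.7%, 27.3% and 27.8% in the next 4 settings, 10.8% to 13.4% with a library left out, and 43.8% and 2.23% past 10 and 30 points. Without activin replicate 2 no site can be missing from it, so only the contrasts over all sites of the other 3 libraries were computed there. No paired analysis was possible because only replicate 1 has a library of each treatment at these sites and no test was made.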
